A study of Homo sapiens with 4 samples.

Results

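The genes described here were WDR5, RBBP5, ASH2L, DPY30, MEN1, PSIP1, SETD1A, SETD1B, CXXC1 and WDR82, which encode WDR5 and its partners in the complexes that methylate histone H3 at lysine 4. Their lines were taken by gene symbol from the 4 peak files of the study, whatever the values. The choice of genes was made with earlier results of these data known. The MLL enzymes KMT2A, KMT2B, KMT2C and KMT2D are not among the 10 and are described with the related genes below. All 10 genes were found among the 18576 gene symbols of the files, on 120 of 137890 lines, where a line joins 1 peak to 1 transcript. The study mapped WDR5 and trimethylated histone H3 lysine 4 (H3K4me3) by ChIP-seq in the leukemia cell lines RS4;11 and THP-1, with 1 sample for each pair of antibody and line. Both lines carry a rearranged MLL (KMT2A) gene, and no drug or gene manipulation is named for any of the 4 samples. RS4;11 comes from an acute lymphoblastic and THP-1 from an acute myeloid leukemia, but in the labels THP-1 is called lymphoblastic for the WDR5 sample and RS4;11 is called myeloid for the H3K4me3 sample, so samples are named by cell line here. Without replicates no difference between the lines could be set against an experimental error, and no test was made.

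WDR5 is a WD-repeat scaffold protein. Together with RBBP5, ASH2L and DPY30 it forms the core that the SET1 and MLL methyltransferases share and that they need for full activity. SETD1A and SETD1B are the enzymes of the SET1 complexes, in which CXXC1 binds unmethylated CpG and WDR82 contacts RNA polymerase II. Menin, the product of MEN1, and LEDGF, encoded by PSIP1, hold MLL on chromatin. H3K4me3, the product of these enzymes, marks the start of most active genes, above all those in CpG islands, and WDR5 can itself bind the H3 tail. The values below describe whether the genes for this machinery carry the mark it writes, and whether WDR5 was listed at its own gene or those of its partners.

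The files give peak positions only, with yes or no flags for the exons, the introns and the 20 kb to either side of a transcript. They held 24212 H3K4me3 peaks in RS4;11 and 26523 in THP-1, against 703 and 225 WDR5 peaks. The widest H3K4me3 peak was 4478 bp in RS4;11 and 4446 bp in THP-1. Among 13 widely expressed housekeeping genes, chosen after the files were seen, 4 in RS4;11 and 3 in THP-1 had an H3K4me3 peak over an exon, and ACTB, GAPDH and EEF1A1 had none in either line. Absence from these files is therefore no measure of absence of the mark, and its part in the results below was not tested. Nor do the files show whether wider peaks were cut or left out before deposit, so each width, median and percentile below refers to the peaks listed. Lineage markers did not sort cleanly by line. The start of CD79A lay in an H3K4me3 peak in RS4;11 only, and that of CSF1R in THP-1 only. The start of PAX5, a B-lineage factor, lay in a 4037 bp peak in THP-1 and had no listed peak in RS4;11, while CEBPE, a myeloid factor, had a 3125 bp peak at its start in RS4;11 only. Of the 8 B-lineage markers 3 had an exon peak in RS4;11 and 4 in THP-1, and of the 8 myeloid markers 4 and 5. VPREB1 and FCN1 were listed in neither. Of 4 T-lineage markers 4 and 1 had an exon peak, none of them at the start in RS4;11, and of 3 erythroid markers none did in either line.

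All 10 genes had an H3K4me3 peak flagged on an exon in RS4;11, and all 10 in THP-1. Over the 19101 protein-coding genes the share was 54.8% in RS4;11 and 60.5% in THP-1. The exon flag alone does not place a peak at the start of a gene. Taking the 5′ end of each gene in the GENCODE annotation, 9 of the 10 genes began inside a peak in RS4;11 and 9 in THP-1, against 46.2% and 49% of all genes. With the start of the canonical transcript, the 1 transcript that GENCODE picks to stand for a gene, the counts were again 9 and 9, against 49.7% and 53.5%. The gene without a peak at its start was SETD1B in RS4;11 and ASH2L in THP-1. A peak that holds the canonical start is called the start-site peak below, and gene positions are on GRCh37.

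**Figure D1:**
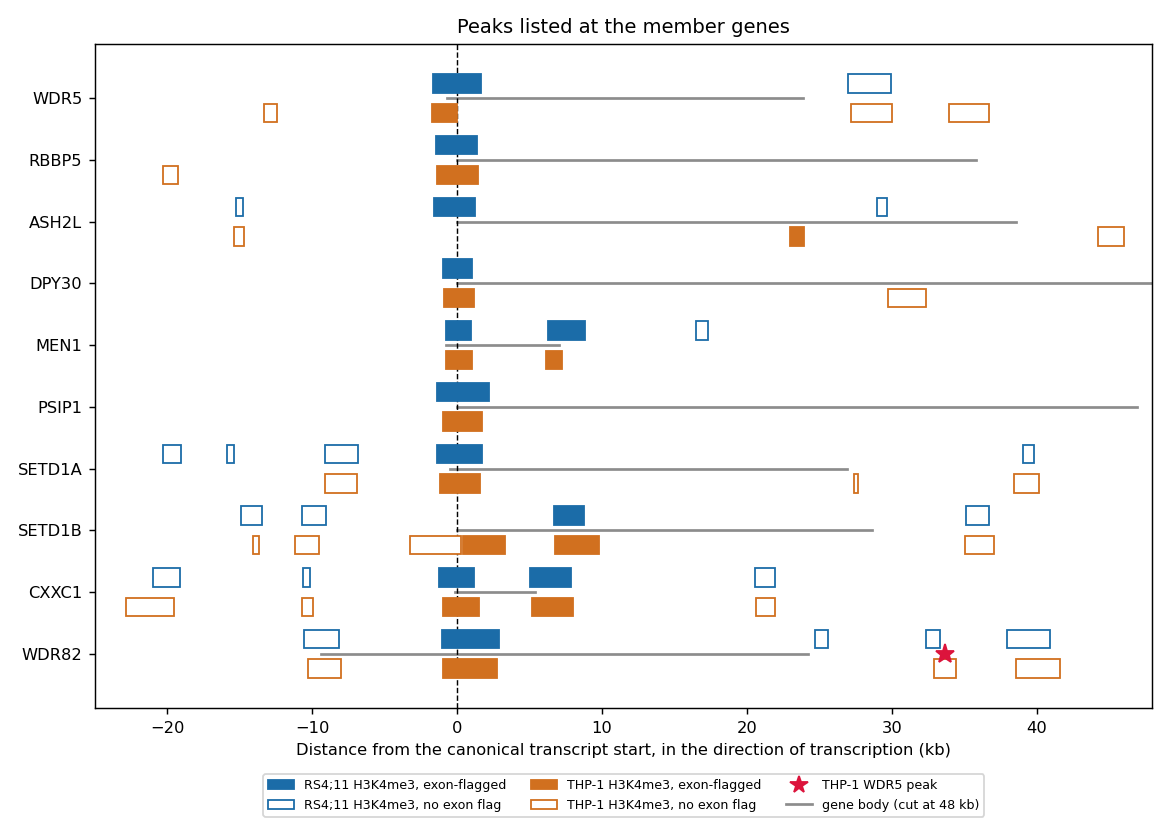
Peaks listed at the 10 genes, by distance in kb from the canonical transcript start in the direction of transcription (x axis), 1 row per gene with RS4;11 above and THP-1 below the gene body (grey, drawn up to the edge of the plot). Filled boxes are H3K4me3 peaks flagged on an exon, open boxes H3K4me3 peaks flagged only outside exons, and the star is the 1 WDR5 peak, at WDR82 in THP-1. The start is covered in both lines at 8 genes, in RS4;11 only at ASH2L and in THP-1 only at SETD1B.

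The WDR5 gene itself (chr9:137000487-137025090, plus strand) carried H3K4me3 at its start in both lines. The start-site peak was 3300 bp wide in RS4;11 and 1769 bp in THP-1, a ratio of 1.87. The upstream edges lay only 99 bp apart, whereas the downstream edges lay 1630 bp apart. In RS4;11 the peak reached 1639 bp into the gene from the canonical start, in THP-1 only 9 bp. The difference in width, on a log2 scale 0.90, was as large as or larger than that of 93.6% of the 8024 genes that had a start-site peak in both lines. In RS4;11 77.8% of all start-site peaks were as narrow as this one or narrower, its percentile, and in THP-1 22.0%. RefSeq gives 4 starts for WDR5, at positions 137000321, 137000499, 137001204 and 137001543 of chromosome 9. All 4 lay in the RS4;11 peak, and the last lay outside the THP-1 peak. The promoters of the last 2 starts are shown because the THP-1 peak ends between them.
WDR5 start 3 (chr9:137000954-137001253, capitals mark the 40 bases past the THP-1 peak edge): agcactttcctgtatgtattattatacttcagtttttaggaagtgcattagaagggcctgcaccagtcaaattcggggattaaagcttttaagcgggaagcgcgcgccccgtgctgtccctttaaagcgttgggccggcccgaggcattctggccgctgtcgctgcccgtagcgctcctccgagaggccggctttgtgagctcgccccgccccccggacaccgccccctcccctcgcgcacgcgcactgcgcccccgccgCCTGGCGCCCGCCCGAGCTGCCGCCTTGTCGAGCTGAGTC
WDR5 start 4 (chr9:137001293-137001592, capitals mark GGGCGG and CACGTG on either strand): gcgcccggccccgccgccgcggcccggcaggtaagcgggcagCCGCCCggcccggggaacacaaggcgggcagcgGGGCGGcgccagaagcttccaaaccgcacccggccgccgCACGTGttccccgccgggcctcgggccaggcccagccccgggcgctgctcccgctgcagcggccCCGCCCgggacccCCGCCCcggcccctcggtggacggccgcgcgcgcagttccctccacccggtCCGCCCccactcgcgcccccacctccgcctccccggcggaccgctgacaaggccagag
The promoter of start 4, which lay wholly in the RS4;11 peak and wholly outside the THP-1 peak, had 82.3% GC, 45 CpG and 5 copies of GGGCGG, the box bound by SP-family factors. That of start 3 had 64.0% GC, 31 CpG and 3 copies. The promoter of start 1 had 51.3% GC and 6 CpG and lay inside the peak of both lines. A second H3K4me3 peak, past the 3′ end of WDR5, was 2970 bp wide in RS4;11 and 2850 bp in THP-1, so its width differed little between the lines. THP-1 also listed a 928 bp peak upstream and a 2731 bp peak further downstream.

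RBBP5 (chr1:205055270-205091143, minus strand), a WD-repeat subunit that activates the enzymes together with ASH2L, had nearly the same peak in both lines. It was 2811 bp wide in RS4;11 and 2801 bp in THP-1, with edges 55 bp and 45 bp apart. Both peaks covered exon 1 and its coding part. The RBBP5 promoter is shown because it had the lowest GC share of the promoters examined, 49.3%, and none of the motifs searched.
RBBP5 (chr1:205091057-205091356, minus strand): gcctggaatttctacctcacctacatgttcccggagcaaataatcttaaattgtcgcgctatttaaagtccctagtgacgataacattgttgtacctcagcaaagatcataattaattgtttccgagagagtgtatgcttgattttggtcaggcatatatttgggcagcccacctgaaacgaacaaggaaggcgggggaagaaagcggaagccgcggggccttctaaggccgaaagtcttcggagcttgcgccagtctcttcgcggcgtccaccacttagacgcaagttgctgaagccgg
The whole RBBP5 peak was also the poorest in CpG, with a CpG ratio, the number of CpG over that expected from the C and G content, of 0.50 in RS4;11 and 0.48 in THP-1. Only 14.3% and 11.9% of all start-site peaks had a ratio as low or lower.

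ASH2L (chr8:37963011-38001594, plus strand), the subunit that carries the binding surface for DPY30, was where the exon flag and the start site parted in THP-1. In RS4;11 a 2819 bp peak reached from 1582 bp upstream to 1236 bp downstream of the canonical start and covered exons 1 to 2. In THP-1 no peak was listed for 37.7 kb around the start, from 14.7 kb upstream to 23.0 kb downstream. The exon-flagged THP-1 peak was 920 bp wide and lay on exon 12, a coding exon deep in the gene. That peak had 8 CpG and a CpG ratio of 0.21, against 153 CpG and 0.73 in the RS4;11 peak at the start. Its width was at the 6.2 percentile of the widest exon peaks of all genes. A start-site peak in RS4;11 and none in THP-1 was seen for 15.5% of the 9498 genes with a start-site peak in RS4;11.

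DPY30 (chr2:32092878-32264874, minus strand), the smallest core subunit, had a start-site peak of 2010 bp in RS4;11 and 2116 bp in THP-1. The upstream edges were 26 bp apart and the downstream edges 132 bp apart, and both peaks covered exons 1 to 3 of its 5 exons. In width these were below the median of all start-site peaks, at the 22.7 percentile in RS4;11 and the 35.8 percentile in THP-1. THP-1 also listed a 2594 bp peak that RS4;11 did not, flagged as downstream of the RefSeq transcript used in the files. By position that peak lay inside the longer GENCODE gene given above.

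MEN1 (chr11:64570982-64578766, minus strand) had 2 exon-flagged peaks in each line, 1 at either end of the gene. The start-site peak was 1730 bp in RS4;11 and 1812 bp in THP-1, and each edge differed by 41 bp. It was the narrowest start-site peak among the genes in RS4;11, at the 14.1 percentile of all genes. The peak at the 3′ end touched exon 10, the last, and was 2574 bp wide in RS4;11 but 1117 bp in THP-1. In RS4;11 that peak also held the canonical start of the neighbour MAP4K2, a kinase gene, and in THP-1 it held no canonical start. The widest exon peak of MEN1 in RS4;11 was therefore not the peak at its own start.

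PSIP1 (chr9:15464064-15510993, minus strand) had a single listed peak in each line, over its start. It was 3625 bp wide in RS4;11 and 2673 bp in THP-1, a ratio of 1.36, and the THP-1 peak lay wholly inside the RS4;11 peak. The RS4;11 peak extended 458 bp further upstream and 494 bp further downstream. The size of this difference was at or above that of 81.0% of the genes with a start-site peak in both lines. The peaks were rich in CpG, with a ratio of 0.80 in RS4;11 and 0.84 in THP-1, at the 90.7 and 94.8 percentiles of all start-site peaks. The promoter of the outer RefSeq start is shown because it had the highest CpG ratio of those examined, 1.08, without a single GGGCGG.
PSIP1 start 1 (chr9:15510919-15511218, minus strand): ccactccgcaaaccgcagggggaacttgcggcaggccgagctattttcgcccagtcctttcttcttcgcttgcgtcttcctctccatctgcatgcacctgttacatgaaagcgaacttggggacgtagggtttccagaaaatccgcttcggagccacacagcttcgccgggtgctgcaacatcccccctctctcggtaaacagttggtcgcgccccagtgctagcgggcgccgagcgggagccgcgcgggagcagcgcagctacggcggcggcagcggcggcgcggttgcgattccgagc

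SETD1A (chr16:30968615-30995985, plus strand), an enzyme of the SET1 complexes, had a start-site peak of 3091 bp in RS4;11 and of 2744 bp in THP-1, the second wholly inside the first, over exons 1 to 3. The upstream edges were 230 bp apart and the downstream edges 117 bp apart. Both lines also listed a peak at the start of ORAI3, a calcium channel gene upstream of SETD1A, 2336 bp in RS4;11 and 2226 bp in THP-1.

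SETD1B (chr12:122241915-122270562, plus strand) was the reverse of ASH2L. In THP-1 a 3542 bp peak held the GENCODE start, and a second peak of 2899 bp followed after a gap of 75 bp. The first was flagged upstream only and the second upstream and on an exon, which places the start of the RefSeq transcript used in the files inside the second. In RS4;11 no peak was listed for 15.7 kb, from 9.07 kb before the GENCODE start to 6.67 kb after it, so neither start was covered. A start-site peak in THP-1 and none in RS4;11 was seen for 21.5% of the 10218 genes with one in THP-1. Inside the gene both lines had a peak on exon 6, 2065 bp wide in RS4;11 and 2984 bp in THP-1, which is why SETD1B still counted as exon-marked in RS4;11. That inner peak had a CpG ratio of 0.41 in RS4;11 and 0.40 in THP-1. In THP-1 the ratio was 0.75 in the peak at the GENCODE start and 0.59 in the 2899 bp peak after it.

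CXXC1 (chr18:47808713-47814209, minus strand) had a start-site peak of 2421 bp in RS4;11 and 2517 bp in THP-1. A wider exon-flagged peak lay over its last exon, exon 15, 2805 bp in RS4;11 and 2836 bp in THP-1, and held the canonical start of MBD1, a gene for a methyl-CpG binding protein. The widest exon peak of CXXC1 was thus in both lines the one that held the start of its neighbour. The CpG ratio of the start-site peak was 0.82 in RS4;11 and 0.75 in THP-1. The promoter is shown because it was the only one examined with the motif AAGATGGCG, the core of YY1 sites, found in 1.75% of all promoters.
CXXC1 (chr18:47814013-47814312, minus strand, capitals mark AAGATGGCG): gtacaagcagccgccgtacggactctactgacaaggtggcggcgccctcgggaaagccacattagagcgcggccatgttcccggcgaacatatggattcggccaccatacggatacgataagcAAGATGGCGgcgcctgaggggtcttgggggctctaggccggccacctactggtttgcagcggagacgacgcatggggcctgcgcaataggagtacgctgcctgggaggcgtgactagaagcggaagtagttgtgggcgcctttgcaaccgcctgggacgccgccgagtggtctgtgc

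WDR82 (chr3:52288450-52322036, minus strand) had the widest start-site peak of the genes in both lines, 3890 bp in RS4;11 and 3741 bp in THP-1. These were at the 93.2 and 92.7 percentiles of all start-site peaks. The edges differed by 55 bp upstream and 94 bp downstream. Most of each peak lay downstream of the canonical start, 2856 bp in RS4;11 and 2762 bp in THP-1. The far 5′ end of the gene in GENCODE lay in another peak of 2359 bp in RS4;11 and 2273 bp in THP-1, which also held the start of GLYCTK and was flagged upstream only. The promoter is shown because it belongs to the widest peak and was the only one examined with the full TGACGTCA box, which 1.85% of all promoters hold.
WDR82 (chr3:52312616-52312915, minus strand, capitals mark TGACGTCA and GGGCGG on either strand): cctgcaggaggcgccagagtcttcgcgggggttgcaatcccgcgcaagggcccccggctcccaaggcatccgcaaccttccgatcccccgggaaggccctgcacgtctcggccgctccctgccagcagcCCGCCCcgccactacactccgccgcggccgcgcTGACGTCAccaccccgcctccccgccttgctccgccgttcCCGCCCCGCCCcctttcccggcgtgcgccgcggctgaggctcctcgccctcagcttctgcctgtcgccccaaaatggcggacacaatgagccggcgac

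**Figure D2:**
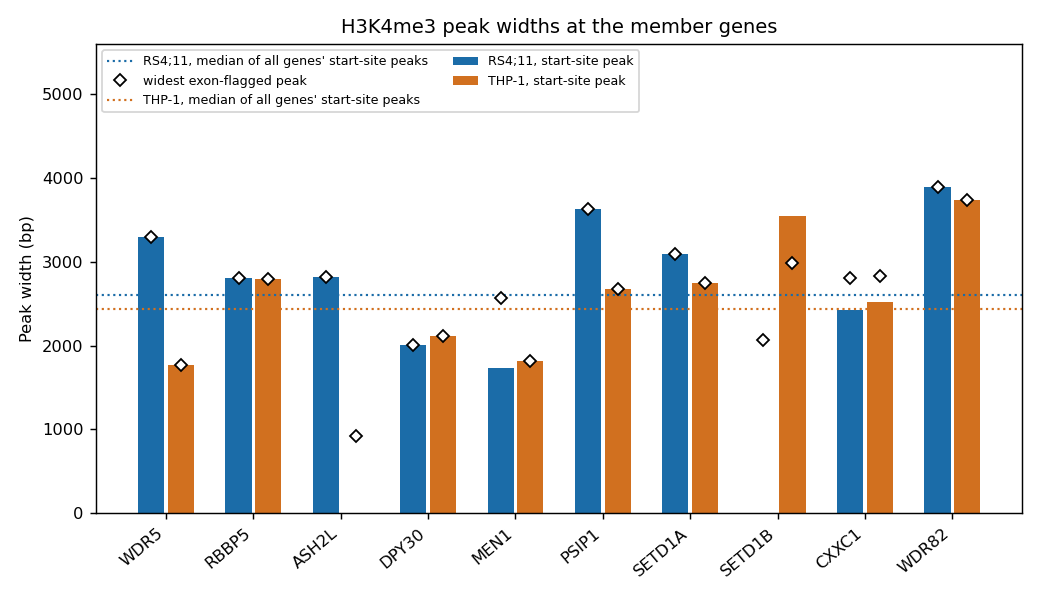
H3K4me3 peak width in bp (y axis, from 0) at each gene in RS4;11 and THP-1, 1 sample each and so without error bars. Bars are start-site peaks, diamonds the widest exon-flagged peak, and dotted lines the medians of all genes' start-site peaks, 2607 bp in RS4;11 and 2436.5 bp in THP-1. Among the 8 genes with a bar in both lines, WDR5 and PSIP1 differ most in start-site width, and WDR82 has the widest bar in both. ASH2L and SETD1B have a bar in 1 line only.

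Across the genes, the widest exon peak had a median of 2815 bp in RS4;11, from 2010 to 3890 bp, beside 2549 bp for all 10473 genes with an exon peak. In THP-1 the median was 2708.5 bp, from 920 to 3741 bp, beside 2349 bp for 11562 genes. In RS4;11 8 were at or above the median of all genes, and in THP-1 6. The start-site peaks had medians of 2819 bp and 2673 bp, and 6 of 9 in each line were at or above the median of all genes. The genes thus spread over much of the width range of all genes. Of the genes with exon peaks in both lines, 9 of 10 had exon peaks that shared at least 1 bp between RS4;11 and THP-1, against 96.4% of 9156 genes, and the exception was ASH2L. Of the 8 with a start-site peak in both, 5 were wider in RS4;11, or 62.5% beside 51.5% of all genes. The median log2 ratio of RS4;11 over THP-1 was 0.03, beside 0.01 over all genes, and the median size of the difference was 0.07 beside 0.17. RBBP5, DPY30, MEN1, CXXC1 and WDR82 differed by less than 0.1 on the log2 scale, SETD1A by 0.17, PSIP1 by 0.44 and WDR5 by 0.90.

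**Figure D3:**
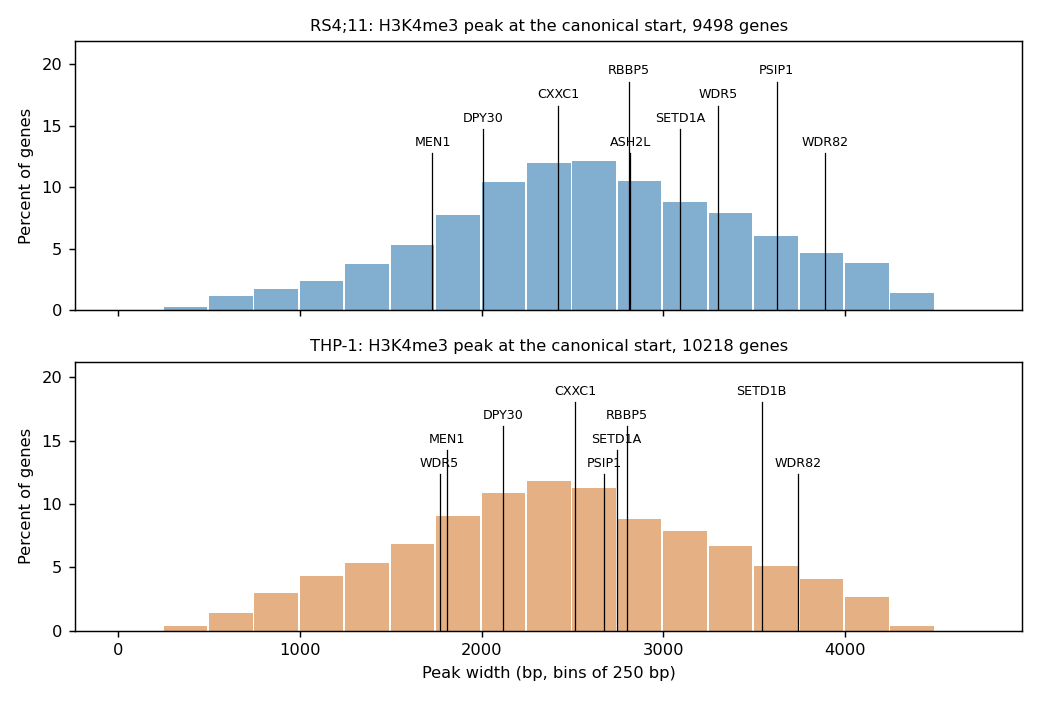
Width of the H3K4me3 peak at the canonical start (x axis, bp, in bins of 250 bp) as percent of all genes with one (y axis), for 9498 genes in RS4;11 (top) and 10218 in THP-1 (bottom), with vertical lines at the 9 member genes of each line. The member genes lie on both sides of the middle of the distribution, from 1730 to 3890 bp in RS4;11 and from 1769 to 3741 bp in THP-1, and no peak of any gene exceeds 4478 bp.

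Promoter sequence was examined for part of the genes. Of the 10 genes, 7 had entries in the RefSeq promoter table (GRCh38.p14), with 12 windows of 300 bases from 250 before to 50 after a start, and all 12 were found unchanged in GRCh37. ASH2L, DPY30 and SETD1B had none. The 12 windows had a median of 64.2% GC and a CpG ratio of 0.93, beside 58.7% and 0.58 over all 35116 windows. Those 35116 belong to 27305 genes and were not limited to the protein-coding genes used elsewhere. They give each motif share of all windows or promoters. The 12 windows ranged from 49.3% to 82.3% GC and from 0.30 to 1.08 in CpG ratio. RBBP5, WDR5 start 1 and MEN1 start 1, with 49.3%, 51.3% and 58.3% GC, were below the median of all windows. GGGCGG was found on either strand in 7 of the 12 windows, of 5 genes, and in 45.0% of all windows. CCAAT, the NFY box, was in 3 windows of WDR5 and MEN1, and in 34.6% of all. CCGGAAG, an ETS site, and CACGTG, an E-box, were each in 1 window, both of WDR5, and in 10.3% and 7.26% of all. TATAAA and the NRF1 motif GCGCATGCG were in none, beside 11.5% and 1.92% of all windows. Windows of 1 gene overlap or lie close together and are not independent. Over whole start-site peaks the CpG ratio had a median of 0.71 in both lines, beside 0.64 in RS4;11 and 0.65 in THP-1 for all genes.

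WDR5 was listed at none of the 10 genes in RS4;11 and at 1, WDR82, in THP-1. Over all protein-coding genes 4.22% had a WDR5 line in RS4;11 and 1.39% in THP-1. No WDR5 peak was listed on an exon, on an intron or upstream of any of the genes, the WDR5 gene included. The single WDR5 peak (chr3:52278885-52279148) was 264 bp wide and was flagged only as downstream of WDR82, 9.3 kb past the 3′ end of the gene. The same peak was listed upstream of PPM1M, TWF2 and TLR9. The nearest canonical start was that of PPM1M, a phosphatase gene, 759 bp from the peak center. It lay wholly within a 1509 bp H3K4me3 peak of THP-1 (chr3:52278236-52279744), whereas the nearest H3K4me3 peak of RS4;11, 987 bp wide, began 166 bp away from it. In THP-1 12% of the 225 WDR5 peaks overlapped an H3K4me3 peak, and in RS4;11 8.25% of 703. Its sequence is shown because it was the only WDR5 peak listed at these genes.
WDR5 peak near WDR82 (plus strand, capitals mark CpG): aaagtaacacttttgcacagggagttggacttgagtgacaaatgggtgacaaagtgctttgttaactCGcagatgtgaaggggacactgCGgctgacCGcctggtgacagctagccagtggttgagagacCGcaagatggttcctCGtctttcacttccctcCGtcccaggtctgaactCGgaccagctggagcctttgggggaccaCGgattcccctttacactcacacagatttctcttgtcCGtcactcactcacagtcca
It had 9 CpG, 53% GC and a CpG ratio of 0.49, beside a median of 38.8% and 0.20 over the THP-1 WDR5 peaks. None of the motifs searched in the promoters was in it.

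The distance from a gene to the nearest listed WDR5 peak ranged widely. Its median over the 10 genes, WDR82 included, was 1.52 Mb in RS4;11 and 2.85 Mb in THP-1. Over all genes it was 1.07 and 4.01 Mb. Here all genes are the protein-coding genes on chromosomes with a listed WDR5 peak, 19058 in RS4;11 and 18468 in THP-1. From the WDR5 gene the distance was 1.32 Mb in RS4;11 and 3.20 Mb in THP-1. In RS4;11 1 of the 10 genes, WDR82, had a WDR5 peak within 100 kb, at 43.1 kb, in DNAH1, beside 9.61% of all genes. In THP-1 3 had one, beside 3.31% of all genes: WDR82, SETD1A at 44.1 kb and DPY30 at 10.4 kb. The last is measured to the long GENCODE gene and came to 166.5 kb for its canonical transcript, and the files list that peak at MEMO1 only. None of these nearest peaks overlapped H3K4me3 except the one near WDR82 in THP-1. The files leave out peaks that have no transcript within 20 kb, so a nearer unlisted peak is possible.

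**Figure D4:**
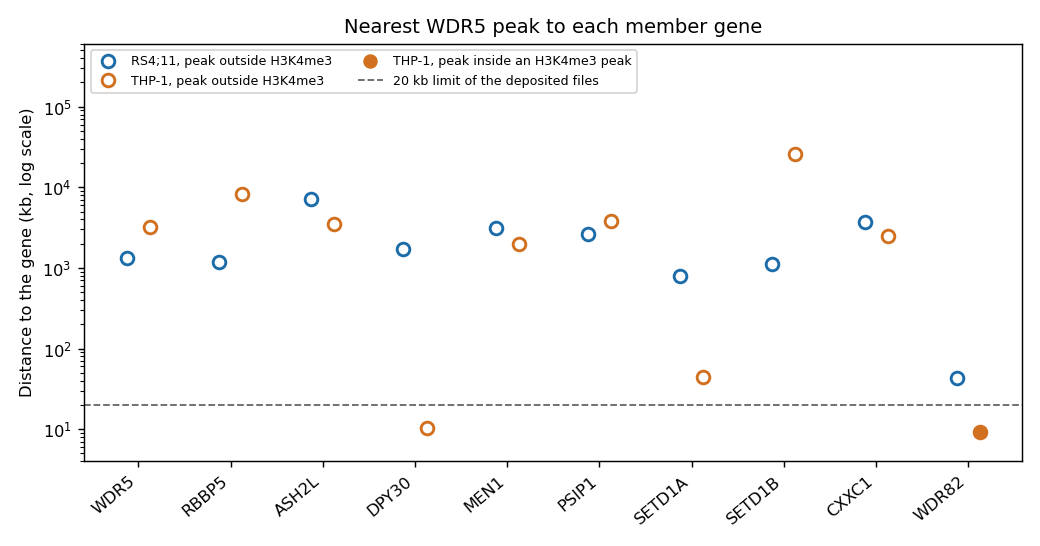
Distance in kb (y axis, log scale) from each gene to the nearest WDR5 peak listed for RS4;11 and for THP-1, with the filled point for the 1 peak inside an H3K4me3 peak and a dashed line at the 20 kb limit of the files. Only WDR82 and DPY30 in THP-1, at 9.3 kb and 10.4 kb, are under the line, and DPY30 by its long GENCODE form only.

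Genes related to H3K4 methylation were taken from 4 lists that do not sort enzymes by degree of methylation. They were described in the same way, without a test. Beside their counts stand the shares over all genes, 54.8% in RS4;11 and 60.5% in THP-1 with an exon peak and 49.7% and 53.5% with a covered canonical start. Of 13 other subunits of the complexes, 10 had an exon peak in RS4;11 and 9 in THP-1, and the canonical start was covered in 7 and 4. The canonical start of KMT2A, KMT2C and KMT2D was uncovered in both lines, and that of KMT2B was covered in RS4;11 only. The exon peak was missing for KMT2A, the MLL1 enzyme, in RS4;11, and for the cofactors HCFC1 and PAXIP1 in THP-1. It was missing for the demethylase KDM6A and C17orf49 in both. The widest were PAGR1 with 4304 bp in RS4;11 and KAT8, a histone acetyltransferase, with 3202 bp in THP-1. Of 6 H3K4 demethylases, 4 and 5 had an exon peak, all of them at the start, with medians of 3071 and 3515 bp. KDM2B had none in either line and KDM5A none in RS4;11, and the widest were KDM5C with 4082 bp in RS4;11 and KDM5B with 4093 bp in THP-1. Of 12 readers, proteins that bind H3K4me3, 9 and 8 had an exon peak, and the start was covered in 9 and 7. ING1 and CHD1 lacked one in both lines, ING2 in RS4;11, and ING5 and PHF2 in THP-1, while BPTF with 3951 bp in RS4;11 and DIDO1 with 3801 bp in THP-1 were the widest. Of 3 methyltransferases outside the complexes, SETD7 had a peak of 4395 bp in RS4;11 and 3702 bp in THP-1, SMYD3 had 2060 and 2156 bp, and the germ-line enzyme PRDM9 had none.

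WDR5 was listed at 5 of these 34 genes in RS4;11 and at none in THP-1, where the shares over all genes were the 4.22% and 1.39% given above. Those shares are not adjusted for gene length, and the part of gene length in the counts was not tested. In RS4;11 the peak lay in an intron of KMT2C, BPTF, SGF29 and SMYD3, at 165.3, 146.0, 15.9 and 571.7 kb from the canonical start, and 4.03 kb upstream of ING4, where the same peak was also listed at ACRBP and ZNF384. Each of these peaks was 246 to 443 bp wide, none was on an exon and none overlapped an H3K4me3 peak.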

How the data were processed

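ChIP-seq of the protein WDR5 and the mark H3K4me3 gave 4 files, 1 for each antibody in either line, RS4;11 or THP-1. The authors sonicated the chromatin for the WDR5 samples, digested it with micrococcal nuclease for the H3K4me3 samples, aligned reads to hg19 with Eland (up to 2 mismatches, unique hits), called peaks with MACS at default settings and joined them to RefSeq transcripts. The submitters' processing notes name CASAVA 1.7 and 1.8.2. The deposited values are peak positions and yes or no flags, without read counts, heights or p-values, so the depth is unknown and no peak could be weighted.

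Lines were reduced to distinct peaks (width is end minus start plus 1). Of 137890 lines, 508 matched no present gene symbol. All main chromosomes of the files lay within the lengths of GRCh37. Genes and starts came from GENCODE release 44 on GRCh37, and the background was 19101 protein-coding genes also in RefSeq. Percentiles give the share of genes with a value as low or lower. Sequence was read from GRCh37, without peaks on unplaced sequences. The genes and lists were chosen with earlier results of these data known. From the lists of related genes, those without an exon peak, those with a WDR5 line and the widest were named. Helper functions were tested on simulated data, and Python 3.11.15 with numpy 2.4.6 and matplotlib 3.10.9 was used.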

Additional observations from a re-analysis of the deposited data

How the results depend on the processing

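With 1 sample per group there were no replicates to leave out, and no paired analysis was possible because no result comes from a test. Counts and medians were called moved when they changed by over 1.5 times. With a limit of 100 kb around the GENCODE gene in place of the lines of the files, the number of genes with WDR5 nearby rose. It went from 0 to 1 in RS4;11 and from 1 to 3 in THP-1. At that limit the shares were 9.61% and 3.31% of all genes on chromosomes with a WDR5 peak. With exon-flagged lines only, the number fell to 0 in THP-1. The rise and the fall are implied by the wider and the narrower limit. The counts of exon-marked genes stayed between 9 and 10 under any line within 20 kb, peaks of at least 1000 bp, a promoter window, and, added after the data were seen, the start of any annotated transcript. The start-site counts (9 and 9) and the overlap between the lines (9, also at 50% and 90% of the smaller peak) did not change. Shares over all genes are not given for these other settings of the H3K4me3 counts. The counts there thus describe the 10 genes only and do not set them apart from other genes. The median width was 3195.5 bp in RS4;11 and 2772.5 bp in THP-1 with exon peaks summed, and 2815 and 2595 bp for the exon peak nearest to the 5′ end. With 150-base promoter windows, median GC was 71.3% and the CpG ratio 0.89, beside 60.7% and 0.61 over all promoters. Peak edges depend on depth and on the caller, neither of which can be examined without read counts.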
